A study of Mus musculus with 4 samples.

Results

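The Hox genes of the A, B, C and D clusters encode homeodomain transcription factors, and 38 of them were followed here among the 53715 genes of the count table. They were chosen by name, as symbols made of Hox, a cluster letter and a number. The 10 Hoxa genes reported lie on chromosome 6 (52162417 to 52260880, mm10) and the 10 Hoxb genes on chromosome 11 (96194316 to 96368256). The 9 Hoxc genes lie on chromosome 15 (102921103 to 103036852) and the 9 Hoxd genes on chromosome 2 (74668310 to 74765142). The RNA came from mouse cells labelled as E12.5 primordial germ cells, which later give rise to eggs and sperm. Magnetic bead sorting yielded 1000 cells for each library, made by a modified Smart-seq2 protocol with Tn5. There were 2 libraries labelled Rif1_KO, from embryos whose genotype is given as Rif1 knock out, and 2 labelled WT, both on the C57BL/6 background. The allele, the way the knockout was made and the antibody of the bead step are not given in the sources used here. Whether the 2 libraries of a genotype are from different embryos is not stated, so a p-value here reflects only how far these libraries vary, and that variation may be technical. Rif1 encodes a chromatin protein that acts in replication timing and DNA break repair.

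In each cluster the Hox genes stand in the order in which they are used along the body. Genes with low numbers (paralogue groups) act from the hindbrain and neck, those in the middle in the trunk, and those with the highest numbers in the hind part of the body, the limb ends and the genital tubercle. A cell therefore tends to keep the Hox genes of the body level and tissue it belongs to, and Polycomb proteins keep the others silent. Germ cells have no body level of their own, while the somatic cells of the gonad and mesonephros, beside which they lie at this age, derive from trunk mesoderm and express Hox genes.

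Promoter windows are shown for Hoxd8, Hoxd10 and Hoxc4, each the member with the highest level in at least 1 library. Beside them stands Hoxd1, at the other end of the Hoxd cluster, which had at most 3 counts in any library. Each is the 250 bases before a gene's start on the plus strand, taken from RefSeq (GRCm38.p6), at chr2:74704365-74704614 for Hoxd8, chr2:74691641-74691890 for Hoxd10, chr15:103034145-103034394 for Hoxc4 and chr2:74762730-74762979 for Hoxd1. The Hoxc4 window lies inside the gene model that was counted. Capitals mark a CCAAT box (CCAAT) or a GC box (GGGCGG) on either strand.
Hoxd8: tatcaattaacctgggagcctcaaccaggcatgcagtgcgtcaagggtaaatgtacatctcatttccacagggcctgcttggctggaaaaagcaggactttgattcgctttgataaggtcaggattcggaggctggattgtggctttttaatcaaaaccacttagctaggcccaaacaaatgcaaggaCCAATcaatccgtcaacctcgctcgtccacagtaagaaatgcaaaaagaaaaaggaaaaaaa
Hoxd10: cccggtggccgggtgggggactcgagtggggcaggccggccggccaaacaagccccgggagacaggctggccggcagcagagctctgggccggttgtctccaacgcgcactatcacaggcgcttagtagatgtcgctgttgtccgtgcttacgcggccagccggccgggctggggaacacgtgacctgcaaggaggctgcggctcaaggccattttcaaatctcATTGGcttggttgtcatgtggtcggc
Hoxc4: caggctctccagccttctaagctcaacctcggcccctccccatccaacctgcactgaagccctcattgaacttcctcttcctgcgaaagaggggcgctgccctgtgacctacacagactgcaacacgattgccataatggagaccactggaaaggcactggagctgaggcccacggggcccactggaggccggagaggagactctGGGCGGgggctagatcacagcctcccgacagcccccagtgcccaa
Hoxd1: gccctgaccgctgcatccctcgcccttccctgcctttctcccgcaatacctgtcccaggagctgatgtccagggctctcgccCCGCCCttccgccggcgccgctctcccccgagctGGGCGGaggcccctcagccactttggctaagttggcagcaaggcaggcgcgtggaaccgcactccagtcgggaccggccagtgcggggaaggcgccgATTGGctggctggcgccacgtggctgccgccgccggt
These windows hold 6 CpG dinucleotides for Hoxd8, 20 for Hoxd10, 8 for Hoxc4 and 24 for Hoxd1. RefSeq windows were at hand for 22 of the 38 members, with 24 windows in all and a median GC content of 58.6%, against 52.4% over 32851 windows of all genes. A CCAAT box was found in 58.3% of the member windows and in 33.8% of all windows, and a GC box in 41.7% and 32.7%. The TATA box letters (TATAAA) were found in 16.7% and 12.4%, and the joint site of Hox and Pbx proteins (TGATTNAT) in 8.33% and 2.82%, each on both strands. These are matches of letters, and a window without one says nothing about the factor.

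The clusters also hold microRNA genes, and the pairs that share a seed are shown because they lie among the members and have matches in them. Mir196b lies inside Hoxa9 (chr6:52230129-52230150, minus strand), Mir196a-1 in the Hoxb cluster (chr11:96265187-96265208, plus strand) and Mir196a-2 in the Hoxc cluster (chr15:102973365-102973386, plus strand). Mir10a lies in the Hoxb cluster (chr11:96317186-96317208, plus strand) and Mir10b inside Hoxd3 and Hoxd4 (chr2:74726074-74726096, plus strand). The mature sequences are from RefSeq, with the seed (bases 2 to 8) in capitals.
miR-196a-5p: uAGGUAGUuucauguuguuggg
miR-196b-5p: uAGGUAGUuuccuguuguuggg
miR-10a-5p: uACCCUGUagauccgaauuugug
miR-10b-5p: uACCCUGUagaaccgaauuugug
The miR-196 pair shares one seed and the miR-10 pair another. The letters that face the miR-196 seed (ACTACCT) occur in the 3' UTRs of 8 of the 38 members, or 21.1%, against 6.55% of 21037 genes (GENCODE M21). These members are Hoxa4, Hoxa5, Hoxa7, Hoxa9, Hoxb1, Hoxb6, Hoxb7 and Hoxc8. The letters that face the miR-10 seed (ACAGGGT) occur in Hoxa3, Hoxb3 and Hoxd1, or 7.89% of members, against 13.1% of genes. A further microRNA gene, Mir615, lies inside Hoxc5 (chr15:103014926-103014947, plus strand), and the letters that face its 5p seed (GGACCCC) occur in Hoxa11, Hoxb13, Hoxc6 and Hoxc11, or 10.5% of members, against 6.96% of genes. Sites of 22 bases are shown for Hoxa7 (the first of 4, chr6:52215400-52215421, minus strand), Hoxb7 (chr11:96289784-96289805, plus strand) and Hoxc8 (the first of 2, chr15:102992976-102992997, plus strand), with the seed match in capitals.
Hoxa7 site: ggcacagccaaaatACTACCTa
Hoxb7 site: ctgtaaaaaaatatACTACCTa
Hoxc8 site: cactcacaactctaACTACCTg
Mature microRNAs were not measured in these libraries, so nothing can be said of their levels.

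The libraries differed in ways that touch every level below. Sequencing gave 12071903 and 14421298 counts for the libraries labelled Rif1_KO (replicate 1 before replicate 2, as throughout) and 12768932 and 11724630 in those labelled WT. Genes with at least 10 counts numbered 15226 and 16211 in the libraries labelled Rif1_KO and 13314 and 13566 in those labelled WT. Rif1 itself had 86.2 and 63.9 CPM (read count relative to the TMM-scaled library total) in the libraries labelled Rif1_KO and 43.7 and 4.73 CPM in those labelled WT. The count of the targeted gene thus goes against the labels, and directions below follow the labels all the same. Its log2 fold change of 1.63 (SE 1.01) did not pass edgeR's quasi-likelihood test (adjusted p = 0.717). Haemoglobin genes took 1.09% and 0.555% of counts in the libraries labelled Rif1_KO and 11.8% and 8.92% in those labelled WT. Germ cell markers were uneven between libraries. The RNA helicase Ddx4 stood at 1.05 and 0.53 CPM in the libraries labelled Rif1_KO and 0.645 and 59.2 CPM in those labelled WT. Over 12 germ cell markers the levels summed to 37.2 and 37.3 CPM for the libraries labelled Rif1_KO and 37 and 454 CPM in those labelled WT. The high sum of WT replicate 2 came mostly from Dazl, Dppa3 and Ddx4. Of the other markers, Kit, Dnd1 and Prdm1 were highest in other libraries: Prdm1, a regulator of germ cell specification, had 0.904 and 17.7 CPM in the libraries labelled Rif1_KO and 0.276 and 0.322 CPM in those labelled WT.

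Hox transcripts were scarce but present in every library. Summed over the 38 members they took 0.013% and 0.0138% of counts in the libraries labelled Rif1_KO and 0.0137% and 0.00562% in those labelled WT. Of the 38 members, 21 reached 10 counts in at least 1 library and 17 never did, with 7 counts as their highest value. Only Hoxc4, Hoxc6, Hoxd8, Hoxd9 and Hoxd10, from the middle of the series, reached 10 counts in all 4 libraries. At this limit 19 and 17 members were detected in the libraries labelled Rif1_KO and 9 and 7 in those labelled WT. Over all genes counted, 28.3% and 30.2% reached 10 counts in the libraries labelled Rif1_KO and 24.8% and 25.3% in those labelled WT. Among the genes that passed the filter of the test, these shares were 91.0% and 92.9% in the libraries labelled Rif1_KO and 80.6% and 81.4% in those labelled WT. Of the 16 members that passed it, 16 and 15 reached 10 counts in the libraries labelled Rif1_KO and 9 and 7 in those labelled WT. Most of these members passed through the libraries labelled Rif1_KO. The gap depends on the limit. At 3 counts, 26 and 25 members were detected in the libraries labelled Rif1_KO and 24 and 23 in those labelled WT. At 1 CPM the gap remained, with 19 and 16 members under the label Rif1_KO and 9 and 7 under the label WT. Members with no count at all numbered 6 and 4 in the libraries labelled Rif1_KO and also 6 and 4 in those labelled WT. A count of 3 corresponds to 0.226 and 0.159 CPM in the libraries labelled Rif1_KO and to 0.276 and 0.322 CPM in those labelled WT, which bounds what a count of 0 allows. No molecular identifiers were used, so such limits speak of counting error alone.

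**Figure D1:**
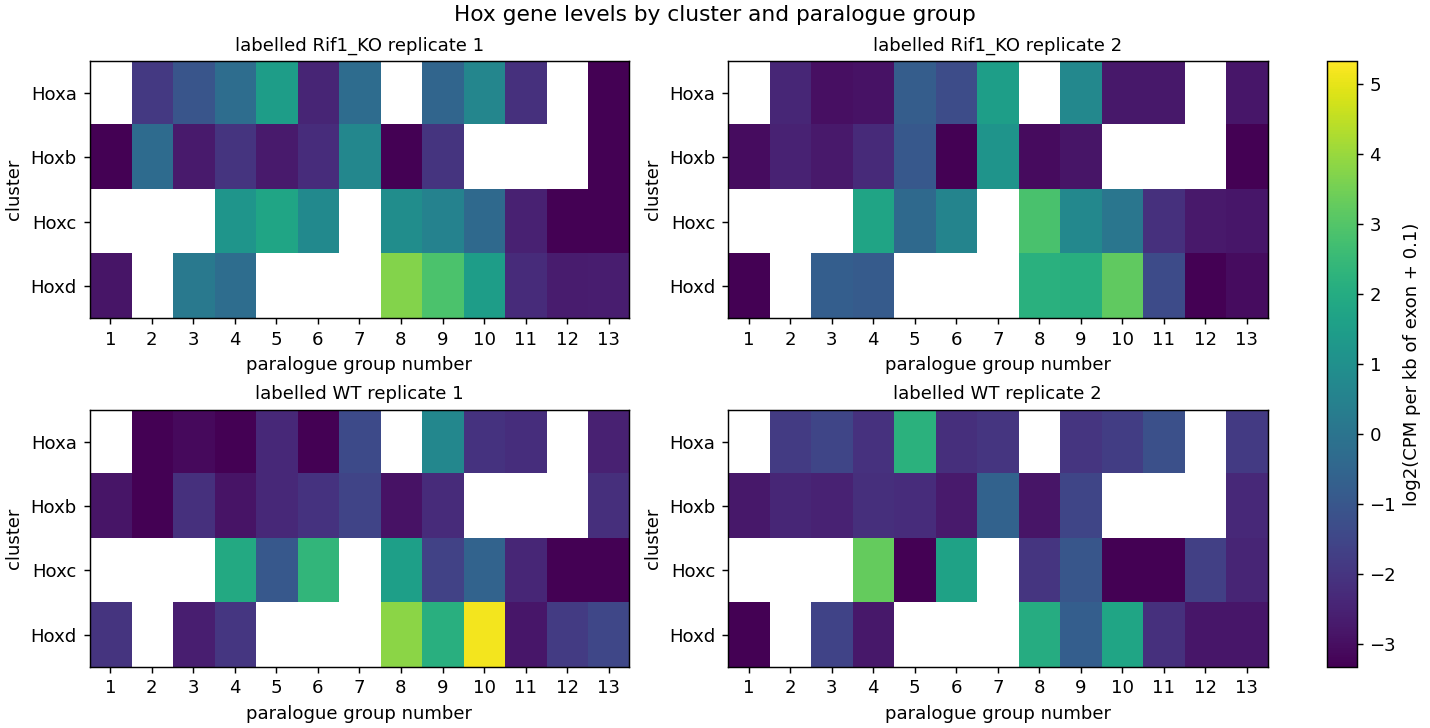
Level of each Hox gene (CPM per kb of exon, log2 colour scale, 0.1 added) by cluster and paralogue group, with 1 panel per library, the Rif1_KO libraries above the WT libraries. Hoxd8 and Hoxd10 are among the brighter squares in every panel, while Hoxc4 and Hoxa5 are the brightest in WT replicate 2. The Hoxb row is mostly dark, which marks low levels. White squares hold no gene or none reported.

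The members that never reached 10 counts lie mostly at the ends of the clusters and in the Hoxb cluster. They include Hoxd1, Hoxb1, which acts in the hindbrain, and Hoxa2, which patterns the second branchial arch. At the other end they include Hoxa11, Hoxa13, Hoxb13, Hoxc11, Hoxc12, Hoxc13, Hoxd12 and Hoxd13. Hoxa13 and Hoxd13 are needed for digits and the genital tubercle, and Hoxc13 for hair and nails. The remaining ones are Hoxa6, Hoxb3, Hoxb4, Hoxb6, Hoxb8 and Hoxb9. Over all genes of paralogue groups 11 to 13 the summed level was 0.434 and 0.625 CPM per kb of exon in the libraries labelled Rif1_KO and 0.897 and 1.11 in those labelled WT. Only Hoxd11 reached 10 counts among them, with 6 and 23 counts in the libraries labelled Rif1_KO and 2 and 5 in those labelled WT. The hind end of the series was thus close to the detection limit in all 4 libraries.

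The Hoxd cluster held the largest share of the Hox level in 3 of 4 libraries. Its summed level was 25.1 and 19.1 CPM per kb in the libraries labelled Rif1_KO and 55.3 and 8.30 in those labelled WT. The WT pair was thus wider apart than the labels, and the groups overlapped. Most of this came from Hoxd8, Hoxd9 and Hoxd10, neighbours within the cluster. Hoxd10 (chromosome 2, 74691924 to 74695105), which acts in the lumbar spinal cord and hindlimb, had 4.90 and 16.7 CPM in the libraries labelled Rif1_KO and 65.6 and 6.02 CPM in those labelled WT. WT replicate 1 stands alone here, and the other WT library lies between the Rif1_KO values. Its log2 fold change was -1.73 (SE 1.36), which edgeR did not call (adjusted p = 0.79). The value rests on single libraries: it was 0.89 without WT replicate 1 and -2.60 without WT replicate 2. In that last fit, where the lone WT library is assumed to vary like the Rif1_KO pair, edgeR called Hoxd10 lower (adjusted p = 0.0249). Over its alternatives the adjusted p of Hoxd10 was 0.0249 to 1.0.

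Hoxd8 (74704615 to 74707933), a trunk gene, had 35.9 and 12.1 CPM in the libraries labelled Rif1_KO and 38.8 and 11 CPM in those labelled WT. Both groups held 1 high and 1 low library at nearly the same levels. Its log2 fold change was -0.05 (SE 1.08; edgeR adjusted p = 0.996), an error that leaves room for a change of a doubling or more in either direction. Hoxd9 (74697727 to 74700208), which works with its paralogues in the lower trunk and limb, had 15.4 and 9 CPM in the libraries labelled Rif1_KO and 9.03 and 1.07 CPM in those labelled WT. The groups met at about 9 CPM and only WT replicate 2 was clearly lower. Its log2 fold change was 1.27 (SE 1.49; edgeR adjusted p = 0.863), with 3.55 without WT replicate 1 and 0.45 without WT replicate 2.

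At the 3' side of the cluster, Hoxd3 and Hoxd4, which pattern the upper neck vertebrae, did not overlap between the groups. Hoxd3 had 4.37 and 2.12 CPM in the libraries labelled Rif1_KO and 0.276 and 0.967 CPM in those labelled WT. Hoxd4 (74711929 to 74729123) had 1.73 and 1.06 CPM in the libraries labelled Rif1_KO and 0.368 and 0.107 CPM in those labelled WT. Behind these levels stood 23 and 20 counts under the label Rif1_KO and 4 and 1 under the label WT. Its log2 fold change of 2.48 (SE 1.04) had the smallest unadjusted p of the members (0.0491), and edgeR's adjusted p was 0.591. The models share exons: 62.8% of the exon bases of Hoxd3 and 100% of those of Hoxd4 also belong to other models, so their counts are uncertain and partly the same reads.

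**Figure D2:**
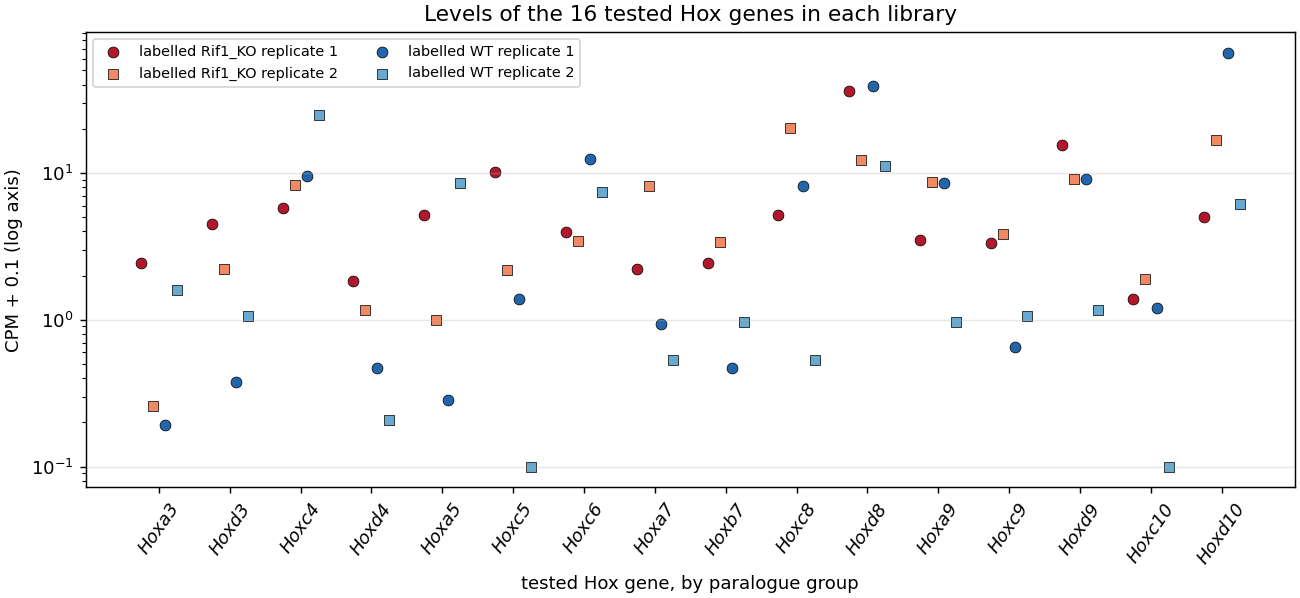
CPM with 0.1 added (log axis) of the 16 Hox genes that passed the filter, ordered by paralogue group, with 1 point per library. Hoxd10 spreads from 4.90 to 65.6 CPM, while Hoxa7, Hoxb7 and Hoxc9 have both Rif1_KO points above both WT points.

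The Hoxc cluster was the most even, with a summed level of 10.9 and 15.0 CPM per kb in the libraries labelled Rif1_KO and 13 and 13.5 in those labelled WT. Within it, single genes went different ways. Hoxc4 (chromosome 15, 103018934 to 103036852), of the neck and upper trunk, had 5.65 and 8.16 CPM in the libraries labelled Rif1_KO and 9.49 and 24.7 CPM in those labelled WT. Hoxc6 (102998257 to 103011881), of the upper thorax, had 3.84 and 3.34 CPM in the libraries labelled Rif1_KO and 12.3 and 7.31 CPM in those labelled WT. These 2 were the tested members with both values lower under the label Rif1_KO. Hoxc4 had a log2 fold change of -1.31 (SE 1.26; edgeR adjusted p = 0.828) and Hoxc6 of -1.44 (SE 1.29; adjusted p = 0.817), and neither was called. Without WT replicate 2 the value of Hoxc4 was -0.45. With upper-quartile factors 1 tested member had both values lower.

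Hoxc8 (102990607 to 102994111), of the thorax and brachial cord, had 5.05 and 20.1 CPM in the libraries labelled Rif1_KO and 8.11 and 0.430 CPM in those labelled WT. The groups overlapped, with a log2 fold change of 1.55 (SE 1.70; edgeR adjusted p = 0.854). It was 4.88 without WT replicate 1 (edgeR adjusted p = 0.0643), 0.64 without WT replicate 2 and 0.26 without Rif1_KO replicate 2. Hoxc5, Hoxc9 and Hoxc10 had both Rif1_KO values above both WT values. Hoxc9, which acts in thoracic motor neurons, had 3.24 and 3.76 CPM in the libraries labelled Rif1_KO and 0.553 and 0.967 CPM in those labelled WT. Hoxc5 had 10.1 and 2.07 CPM in the libraries labelled Rif1_KO and 1.29 and 0 CPM in those labelled WT. Hoxc10 had 1.28 and 1.80 CPM in the libraries labelled Rif1_KO and 1.11 and 0 CPM in those labelled WT. Hoxc5 and Hoxc10 share 166 exon bases.

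In the Hoxa cluster the libraries of a label disagreed for most genes. Hoxa5 (chromosome 6, 52201754 to 52204587), needed for the lung and the neck to thorax transition, had 5.05 and 0.900 CPM in the libraries labelled Rif1_KO and 0.184 and 8.49 CPM in those labelled WT. Both WT values lie outside the Rif1_KO range, on opposite sides. Hoxa9 (52223100 to 52231089), of the lower trunk and of blood progenitors, had 3.39 and 8.58 CPM in the libraries labelled Rif1_KO and 8.48 and 0.860 CPM in those labelled WT. The log2 fold change was -0.54 (SE 1.81; edgeR adjusted p = 0.97) for Hoxa5 and 0.36 (SE 1.52; adjusted p = 0.977) for Hoxa9, and both changed sign when single libraries were left out. Hoxa3, needed for the thymus and parathyroid, had 2.34 and 0.159 CPM in the libraries labelled Rif1_KO and 0.0921 and 1.5 CPM in those labelled WT.

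Paralogue group 7 had the largest ratio of summed levels among the 13 groups, at 2.25 and 4.91 CPM per kb in the libraries labelled Rif1_KO and 0.527 and 0.706 in those labelled WT. Hoxa7 (52214491 to 52221854) had 2.11 and 8 CPM in the libraries labelled Rif1_KO and 0.829 and 0.430 CPM in those labelled WT. Hoxb7 (chromosome 11, 96286623 to 96290162), the only tested Hoxb gene, had 2.34 and 3.28 CPM in the libraries labelled Rif1_KO and 0.368 and 0.860 CPM in those labelled WT. Both act in the trunk, and their groups did not overlap. The log2 fold change was 2.98 (SE 1.37) for Hoxa7 and 2.19 (SE 1.08) for Hoxb7, and edgeR called neither (adjusted p of 0.622 and 0.636). With a library left out it was 1.76 to 3.71 for Hoxa7 and 1.75 to 2.91 for Hoxb7. Both genes reached 10 counts only in the libraries labelled Rif1_KO and so passed the filter through them, which makes a shared sign no support. Both have the miR-196 matches printed above, as has Hoxc8, whose groups overlapped. Hoxa5 and Hoxa9, the other tested members with such a match, also had groups that overlapped. An antisense model, Hoxaas3, covers 20.4% of the exon bases of Hoxa7, and it had 2.41 and 6.57 CPM in the libraries labelled Rif1_KO and 0.276 and 0.107 CPM in those labelled WT. Without a strand setting, reads of Hoxa7 and Hoxaas3 cannot be told apart there, while Hoxb7 shares no exon base with another model.

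A further 5 members reached 10 counts but did not pass the filter, each through 1 library. Hoxa10, which patterns the uterus and lumbar spine, had 64 and 3 counts in the libraries labelled Rif1_KO and 5 and 6 in those labelled WT. Hoxb2, of the hindbrain, had 33 and 5 counts in the libraries labelled Rif1_KO and 0 and 3 in those labelled WT. Hoxa4 had 16 counts in Rif1_KO replicate 1 and Hoxb5 22 in Rif1_KO replicate 2, with at most 3 elsewhere. Hoxd11 is given above. None of the members that reached 10 counts without passing the filter did so in a WT library.

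Over all of this, edgeR's quasi-likelihood test called 0 of the 16 tested members higher and 0 lower at an adjusted p under 0.05, against 0% of 15466 tested genes higher and 0.0129% lower. Before adjustment, at p under 0.05, it gave 1 member higher and 0 lower, against 5.35% and 3.05% of all tested genes. DESeq2 called 0 members in either direction, against 2.31% higher and 1.35% lower over the genes to which it gave an adjusted p; Hoxa3, Hoxc10 and Hoxd4 got none. Both Rif1_KO values lay above both WT values in 7 tested members and below them in 2, against 21.0% and 18.4% of all tested genes. The fitted log2 fold change was above 0 in 11 of the tested members, against 46.1% of all tested genes. These counts cannot be read as support for a rise. Of the 16 members, 10 had 10 counts in both Rif1_KO libraries and not in both WT libraries, 0 the reverse, 5 had them in both groups and 1 in neither, so most passed the filter through the libraries labelled Rif1_KO. Over all 38 members the groups did not overlap in 7 that were higher and 7 that were lower under the label Rif1_KO. The 5 untested ones among the lower (Hoxa13, Hoxb1, Hoxb3, Hoxb8 and Hoxb13) had at most 6 counts. At such counts the scaling can set the order. Hoxb1 and Hoxb8 each had 0 and 1 counts under the label Rif1_KO and 1 and 1 under the label WT. The same shares over all genes counted were not taken, so the 7 and 7 are no measure of balance. The exact two-sided permutation test of 2 libraries against 2 cannot go below p = 0.333, so single values were not tested that way.

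**Figure D3:**
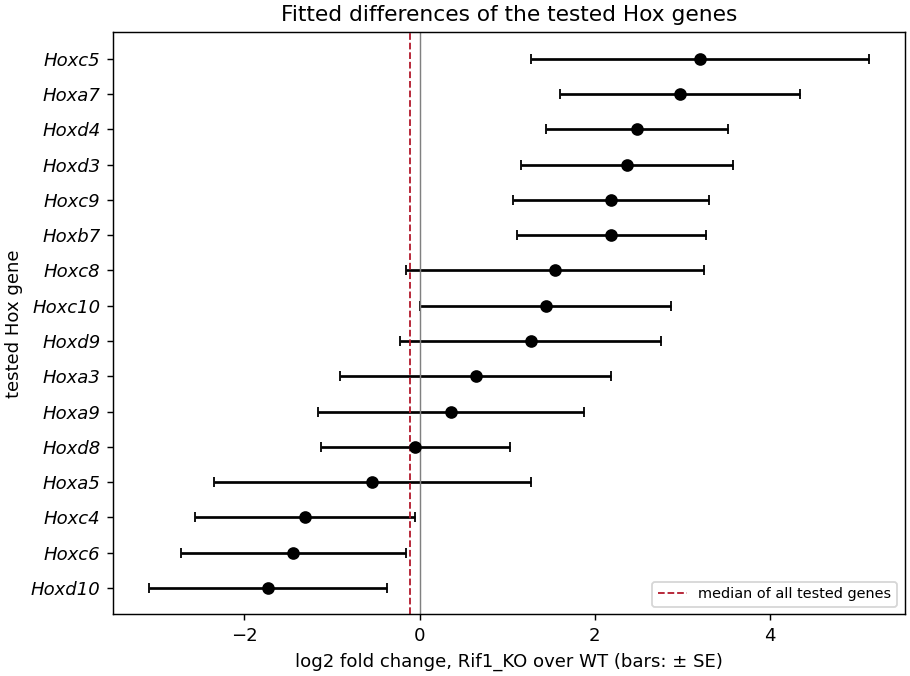
Fitted log2 fold change (Rif1_KO over WT, edgeR) with its SE for the 16 Hox genes that passed the filter, ordered by size, with the median of all tested genes dashed. The values run from 3.20 for Hoxc5 to -1.73 for Hoxd10, and edgeR called none.

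By shares of the Hox level the libraries labelled WT differed from each other more than those labelled Rif1_KO. The 2 Rif1_KO libraries were over 4-fold apart in 3 of the 16 tested members, against 16.7% of all tested genes. The 2 WT libraries were so in 8, against 33.9%. Of the 16 members, 10 had 10 counts in both Rif1_KO libraries and not in both WT libraries. The filter thus favours a close Rif1_KO pair, and the 3 and 8 are no support for a wider WT pair. As shares of the Hox level, Hoxd genes took 54.8% and 45.1% in the libraries labelled Rif1_KO and 77.4% and 28.2% in those labelled WT. Hoxc genes took 23.9% and 35.5% in the libraries labelled Rif1_KO and 18.1% and 45.8% in those labelled WT. For both, the 2 WT libraries lay outside the Rif1_KO pair on opposite sides. Along the body axis, groups 9 and 10 took 30.9% and 41.3% of the Hox level in the libraries labelled Rif1_KO and 60% and 16.3% in those labelled WT. Groups 1 to 4 took 13.7% and 10.7% in the libraries labelled Rif1_KO and 6.00% and 36.7% in those labelled WT. The mean paralogue number weighted by level was 7.31 and 7.95 in the libraries labelled Rif1_KO and 8.74 and 6.21 in those labelled WT. By this mean WT replicate 1 was highest and WT replicate 2 lowest. That order held within Hoxa, at 6.44 and 7.32 in the libraries labelled Rif1_KO and 8.83 and 5.68 in those labelled WT. In WT replicate 1 Hoxa9 held 67.3% of the Hoxa level and was the only Hoxa member with 10 counts. The order did not hold within the other clusters. Within Hoxd the mean was 8.20 and 9.01 in the libraries labelled Rif1_KO and 9.38 and 8.79 in those labelled WT. Within Hoxc the mean was 6.27 and 7.12 in the libraries labelled Rif1_KO and 6.11 and 4.82 in those labelled WT. Within Hoxb it was 5.49 and 6.38 in the libraries labelled Rif1_KO and 6.79 and 6.60 in those labelled WT. The WT means of Hoxb rest on 25 and 31 counts, and no Hoxb member reached 10 counts there. The highest member was Hoxd8 (28.6%) and Hoxd10 (21.7%) in the libraries labelled Rif1_KO and Hoxd10 (50.5%) and Hoxc4 (32.6%) in those labelled WT.

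**Figure D4:**
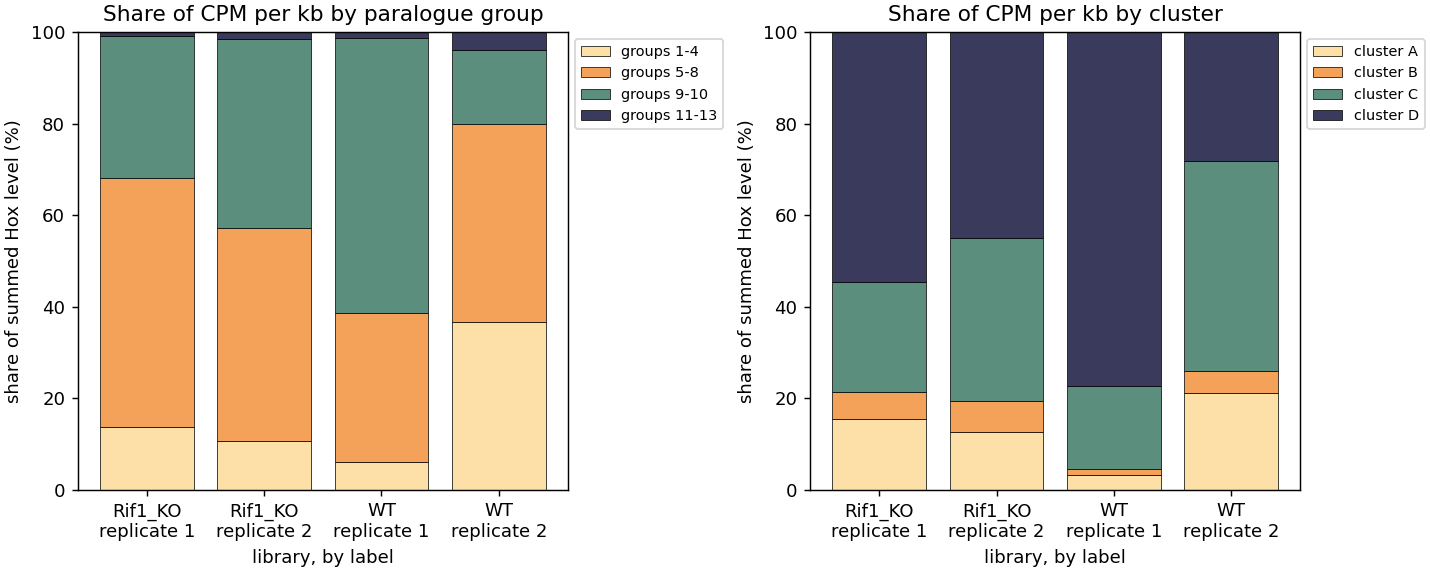
Share of the summed Hox level (CPM per kb of exon) by paralogue group (left) and by cluster (right), with 1 bar per library, Rif1_KO left of WT. For groups 9 and 10 the WT libraries lie at the extremes, at 60% in replicate 1 and 16.3% in replicate 2.

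The Hoxb cluster was low in every library, at 2.74 and 2.86 CPM per kb in the libraries labelled Rif1_KO and 0.952 and 1.46 in those labelled WT. This was the one cluster whose groups did not overlap, and Hoxb7 held 55.2% and 74.4% of it in the libraries labelled Rif1_KO. The Hoxa cluster summed to 7.04 and 5.39 CPM per kb in the libraries labelled Rif1_KO and 2.26 and 6.22 in those labelled WT. Over all 38 members the sum was 45.8 and 42.4 CPM per kb in the libraries labelled Rif1_KO and 71.5 and 29.5 in those labelled WT. In bulk samples fewer cells of a type and less RNA per cell cannot be told apart.

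Genes that work with or upstream of Hox genes were followed as lists, and edgeR called 0 members of any of them. Over all tested genes edgeR gave 5.35% higher and 3.05% lower before adjustment (p under 0.05). Of the TALE cofactors, the Pbx, Meis and Pknox proteins that bind DNA together with Hox proteins, 8 of 9 were tested, with 0 higher and 0 lower before adjustment (p under 0.05) and a median log2 fold change of 0.33, against -0.11 over all tested genes. Meis1 had 20.1 and 75.3 CPM in the libraries labelled Rif1_KO and 56.7 and 103 CPM in those labelled WT. Pknox2 had 15.7 and 14.2 CPM in the libraries labelled Rif1_KO and 1.01 and 6.88 CPM in those labelled WT. Of the genes for retinoic acid and Cdx inputs, which switch Hox genes on along the axis, 12 of 18 were tested, with 2 higher and 0 lower before adjustment and a median of 0.54. Rarb, a retinoic acid receptor and itself a retinoic acid target, had 6.33 and 28.9 CPM in the libraries labelled Rif1_KO and 1.01 and 0.430 CPM in those labelled WT. It was called higher by DESeq2 (adjusted p = 0.0117) but not by edgeR (log2 fold change 4.58, SE 1.62, adjusted p = 0.571). DESeq2 called 2.31% higher over the genes to which it gave an adjusted p. Rarb had 84 and 545 counts under the label Rif1_KO and 11 and 4 under the label WT, so it passed the filter through the former.

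All 27 Polycomb and MLL genes, which keep Hox genes silent or active, were tested, with 1 higher and 0 lower before adjustment and a median of -0.24. That gene was Bmi1, a Polycomb subunit, with 46.7 and 33.7 CPM in the libraries labelled Rif1_KO and 0.368 and 0.752 CPM in those labelled WT. DESeq2 called it higher (adjusted p = 2.76e-06) and edgeR did not (log2 fold change 6.15, SE 1.27, adjusted p = 0.571). Bmi1 had 4 and 7 counts in the libraries labelled WT, so it too passed the filter through those labelled Rif1_KO. Rbbp5, a subunit of MLL complexes, had 2.49 and 10.6 CPM in the libraries labelled Rif1_KO and 31.3 and 45.9 CPM in those labelled WT. Among 30 other genes of body position 9 were tested, and 8 of these belong to the urogenital ridge. The 13 urogenital ridge genes summed to 701 and 626 CPM in the libraries labelled Rif1_KO and 539 and 488 CPM in those labelled WT. The 7 head and forebrain genes summed to 9.42 and 1.01 CPM in the libraries labelled Rif1_KO and 2.40 and 2.36 CPM in those labelled WT. The 8 limb and tail genes summed to 2.86 and 1.27 CPM in the libraries labelled Rif1_KO and 3.78 and 4.84 CPM in those labelled WT. By summed level the urogenital ridge genes were the highest of these groups in every library.

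Other gene models inside the clusters numbered 42, of which 8 were tested. Before adjustment (p under 0.05) edgeR gave 2 higher and 0 lower, against 5.35% and 3.05% of all tested genes. The 2 were Gm15050 and Hoxaas3 in the Hoxa cluster. Gm15050 had 2.34 and 0.953 CPM in the libraries labelled Rif1_KO and no count in those labelled WT. Just outside that cluster, Halr1 had 5.50 and 1.38 CPM in the libraries labelled Rif1_KO and no count in those labelled WT. DESeq2 called Halr1 higher (adjusted p = 0.0377) and edgeR did not (adjusted p = 0.571). Gm15050, Hoxaas3 and Halr1 reached 10 counts only in the libraries labelled Rif1_KO and passed the filter through them. Their shared direction is therefore no support. Among the models within 500 kb of the clusters DESeq2 called 1 higher (Halr1) and 1 lower. The shares were 2.31% and 1.35% over the genes to which it gave an adjusted p. In the Hoxd cluster Haglr had 7.01 and 4.87 CPM in the libraries labelled Rif1_KO and 1.29 and 0.430 CPM in those labelled WT. Of 50 protein-coding genes within 500 kb of the clusters 34 were tested, with a median log2 fold change of -0.87, against -0.11 over all tested genes. Both Rif1_KO values lay above the WT values in 4 of the 34 and below them in 11, against 21.0% and 18.4% of all tested genes.

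Markers of some other cell types differed between the labels beside these values. Interstitial and stromal markers summed to 1700 and 1370 CPM in the libraries labelled Rif1_KO and 576 and 440 CPM in those labelled WT. All 10 of 10 had both Rif1_KO values above both WT values, against 21.0% of all tested genes. Among them was Tcf21, with 24.4 and 33.5 CPM in the libraries labelled Rif1_KO and 0.553 and 4.73 CPM in those labelled WT. Erythroid markers summed to 9780 and 4260 CPM in the libraries labelled Rif1_KO and 137000 and 112000 CPM in those labelled WT. Both Rif1_KO values were lower in 8 of 8, against 18.4% of all tested genes. Of these markers edgeR called 2 lower, Hba-a1 and Hba-a2, the only genes it called (0.0129% of all tested genes). The germ cell sum, given above, was highest in WT replicate 2, the library with the lowest Hox sum. Supporting cell markers summed to 340 and 334 CPM in the libraries labelled Rif1_KO and 349 and 504 CPM in those labelled WT. Mesonephros and epithelium markers summed to 41.1 and 129 CPM in the libraries labelled Rif1_KO and 186 and 227 CPM in those labelled WT. Both Rif1_KO values were lower in 2 of the 6 tested (Epcam and Krt8), against 18.4% of all tested genes, and higher in 0. Pax8 had 10.7 and 10.2 CPM under the label Rif1_KO and 8.57 and 12.3 CPM under the label WT. Pax2 and Lhx1 had at most 8 counts in any library. Endothelial markers summed to 72.1 and 151 CPM in the libraries labelled Rif1_KO and 273 and 156 CPM in those labelled WT. Leukocyte, neural, muscle and gut markers each summed to at most 21.7 CPM in any library, and 0 markers were without a count in all 4 libraries. The part of these cell types in the Hox values was not tested.

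**Figure D5:**
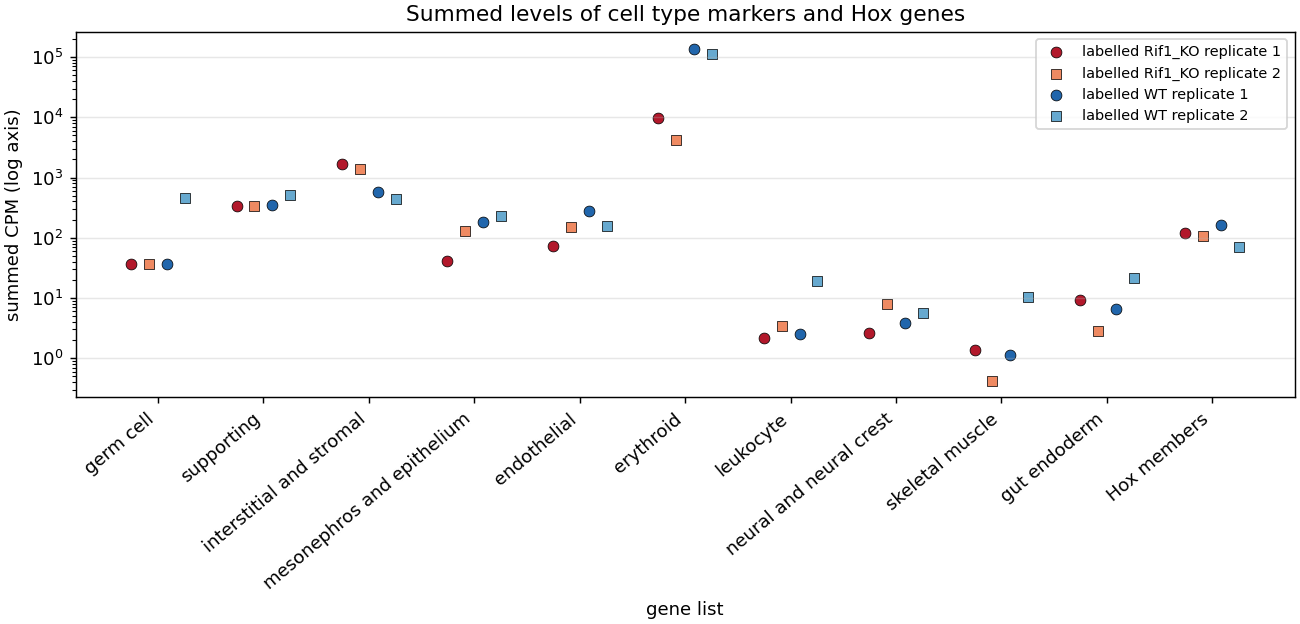
Summed CPM (log axis) of the 38 Hox genes and of the marker genes of 10 cell types, with 1 point per library. The stromal sums are 1700 and 1370 CPM under the label Rif1_KO and 576 and 440 CPM under the label WT, while the Hox sums of the labels overlap.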

How the data were processed

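RNA-seq of 4 libraries was used, grouped by the genotype label and numbered by the sample titles. The deposited values are raw counts per gene; HISAT2 and SAMtools, after Trim Galore and FastQC, and build mm10 are named in the submitters' processing notes. Per the file headers, featureCounts 1.6.2 counted fragments on GENCODE M17 with a mapping quality of at least 30, took reads for every gene they overlap, and had no strand option. Counts of overlapping, antisense and near-identical Hox models are therefore uncertain. Symbols came from Ensembl identifiers, and 95 had none. Of the genes matching the name rule 1, and of the genes the rule for named genes takes 1, are not reported here, and Hox sums are over the 38 others. The members and lists were chosen with earlier results of these data known.

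Replicates differed by more than sampling noise (chi-square per degree of freedom 86.58 for Rif1_KO and 107 for WT). filterByExpr (minimum count 10) left 15466 genes, fitted with edgeR 4.0.16 in R 4.3.3 (quasi-likelihood, robust, TMM factors 1.107 and 1.319 for Rif1_KO and 0.856 and 0.8 for WT) with Benjamini-Hochberg adjustment at 0.05. SE is the log2 fold change over the root of F. The median over all tested genes, on the log2 scale, was -0.111 with TMM, -0.195 with RLE and 0.164 with upper-quartile factors. Levels between genes are CPM per kb of the table's exon length. DESeq2 1.42.0 (independent filtering set to the threshold) and limma-voom (limma 3.58.1) were alternatives, beside other factors, filters, a replicate block and leaving out each library. Steps were tested on simulated counts. Named members are the 3 tested ones of highest level per cluster, any with an unadjusted p under 0.05, and every member with 10 counts; of other lists up to 3 with the smallest p were eligible. Ddx4, Dazl, Dppa3, Kit, Dnd1, Prdm1, Pax8, Pax2 and Lhx1 were chosen after their values were seen.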

Additional observations from a re-analysis of the deposited data

How the results depend on the processing

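No Hox gene was called in any alternative but one: without WT replicate 2, Hoxd10 was called lower, so that the count of members lower was 0 to 1 with a library left out. Over all genes, the number higher was 18 with no filter, 329 by DESeq2 and 0 to 692 with a library left out, against 0. The number lower was 0 with upper-quartile factors or composition genes removed, 36 with no filter, 192 by DESeq2, 7 with the replicate block and 5 to 653 with a library left out, against 2. Composition genes are the haemoglobin, mitochondrial and rRNA-region genes. The 2 genes called lower, Hba-a1 and Hba-a2, are haemoglobin genes, so these calls could not recur once composition genes were removed. The 0 of that setting is therefore no sign of a dependence on the processing. Signs turned for 4 of 11 named members. Hoxa5 (-0.54) was 0.68 by limma-voom, 0.51 with the replicate block and -2.14 to 3.96 with a library left out. Hoxd8 (-0.05) was 0.26 with upper-quartile factors, 0.15 with no filter, 0.02 with the replicate block and with composition genes removed, and -0.98 to 1.18 with a library left out. With a library left out, Hoxa9 was -0.49 to 2.83 and Hoxd10 -2.85 to 0.89, and without a turn of sign Hoxc8 was 0.26 to 4.88, Hoxd9 0.45 to 3.55 and Hoxc4 -1.79 to -0.45. The same range for the log2 ratio of summed levels was 0.05 to 1.47 for Hoxa, 0.99 to 1.56 for Hoxb, -0.22 to 0.27 for Hoxc and -1.32 to 1.46 for Hoxd. It was -0.95 to 0.34 for groups 1 to 4, -0.06 to 0.86 for groups 5 to 8, -1.43 to 1.76 for groups 9 and 10, and -1.15 to -0.60 for groups 11 to 13; Hoxc was 0.24 with upper-quartile factors. At 3 counts 24 and 23 members were detected in the WT libraries, and at 1 CPM 9 and 7. With all libraries kept, the tested members without overlap numbered 7 to 8 higher and 1 to 2 lower (1 under upper-quartile factors), against 7 and 2. With a library left out they numbered 9 to 11 higher and 2 to 4 lower. A group then holds a single library, so groups fall apart more easily. The shares over all tested genes were not taken for these alternatives, so the larger numbers are no sign of a larger shift. Same-numbered libraries did not deviate together (correlation -0.023), so the numbers are taken as names. The cause of these shifts was not tested. The common coefficient of variation of 0.84 and counts under 10 in 17 members limit what can be seen.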
